A study of Mus musculus with 10 samples.

Results

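Collagen chains, the proteins that wind around each other in threes to build the fibres, sheets and filaments of the extracellular matrix, were followed in the livers of mice that drank ethanol while on a fat-rich diet. Members were taken by name: every probe whose gene symbol was Col, a number, a and a number. That gave 67 probes of 44 collagen genes, out of 56605 probes and 22907 named genes on the array. Of these, 27 genes (29 probes) were measured well enough to compare.

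Both groups were adult male C57BL/6J mice, an inbred strain with no engineered allele. All were bought at 7 weeks of age and acclimatised for 1 week. Both groups ate a 60% high-fat diet of 5.5 kcal per g for 4 months. The control group drank no ethanol. The ethanol group received ethanol in its drinking water over the last 3 months, with a daily intake of 5 g per kg for the opening week and 10 g per kg from then on. Each group held 10 mice, of which 5 drawn at random gave a liver sample of roughly 10 to 15 mg for a 1-colour Agilent array, so n = 5 counts animals. There was no group on a standard diet and none given ethanol without the fat-rich diet, so every value below compares ethanol with its absence on a high-fat background.

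Fibrillar collagens (types I, II, III, V, XI, XXIV and XXVII) assemble into cross-banded fibrils, with types I and III the bulk of the scar in a fibrotic liver. Basement membrane collagens (type IV) form sheets under epithelium and around vessels. The other collagens include beaded filaments (type VI), chains that coat fibrils (such as types XII, XIV and XVI), membrane-spanning chains and the multiplexins, of which type XVIII is made by hepatocytes and releases endostatin. In liver, stellate cells and portal fibroblasts are the main sources of fibrillar collagen.

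A signal is given as log2 relative to the 75th percentile of its own array, so that 0 is that percentile and 1 unit is a 2-fold difference. To be kept, a probe had to stand well above background on 4 or more of a group's 5 arrays, which 31110 probes did. The share of spots that did so was 55.5% to 59.1% per array, none was saturated, and precision is limited by the array number. The 5 hepatocyte markers were well above background in both groups, among them Alb (albumin), whose level was 10.19 ± 0.18 (SD, n = 5) without ethanol and 10.25 ± 0.10 (SD, n = 5) with it. The 10 arrays lay on 3 slides with up to 4 columns each, and treatment was not spread evenly over them. Slide 1 held control mice 4 and 5 and ethanol mouse 4, slide 2 held control mice 1 and 3, and slide 3 held control mouse 2 and ethanol mice 1, 2, 3 and 5. Column 1 held ethanol mice 2 and 3 alone, column 2 control mouse 2 and ethanol mouse 5, column 3 control mouse 3 and ethanol mice 1 and 4, and column 4 control mice 1, 4 and 5 alone.

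No collagen gene passed an adjusted p of 0.05 in limma with Benjamini-Hochberg adjustment over all 31110 probes, a threshold that 0.00321% of probes passed as lower and 0.00643% as higher with ethanol. The smallest adjusted p of a collagen was 0.223, that of Col1a2. At an unadjusted p under 0.05, 13 of the 27 genes were lower with ethanol, where 4.28% of all probes were (1 of the 13, Col6a5, was not well above background in any ethanol mouse), and 1 (Col7a1) was higher, where 8.56% were. With quantile normalization in place of the percentile, 15 collagens were lower (6.26% of all probes) and 1 higher (5.33%). In 7 genes (Col1a1, Col1a2, Col2a1, Col3a1, Col6a1, Col6a2 and Col14a1) every ethanol mouse lay under every control mouse, which held for 0.955% of all probes. In no collagen did every ethanol mouse lie above every control mouse, which held for 1.8% of all probes. Mean signals were lower with ethanol in 17 of 27 genes, against 38.8% of all probes. The median log2 fold change was -0.81 over the 9 kept fibrillar genes, -0.46 over the 3 of basement membrane and -0.36 over the 15 others, against 0.05 over all probes. These are signals of whole liver, in which fewer collagen-making cells and less collagen RNA per cell cannot be told apart.

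**Figure D1:**
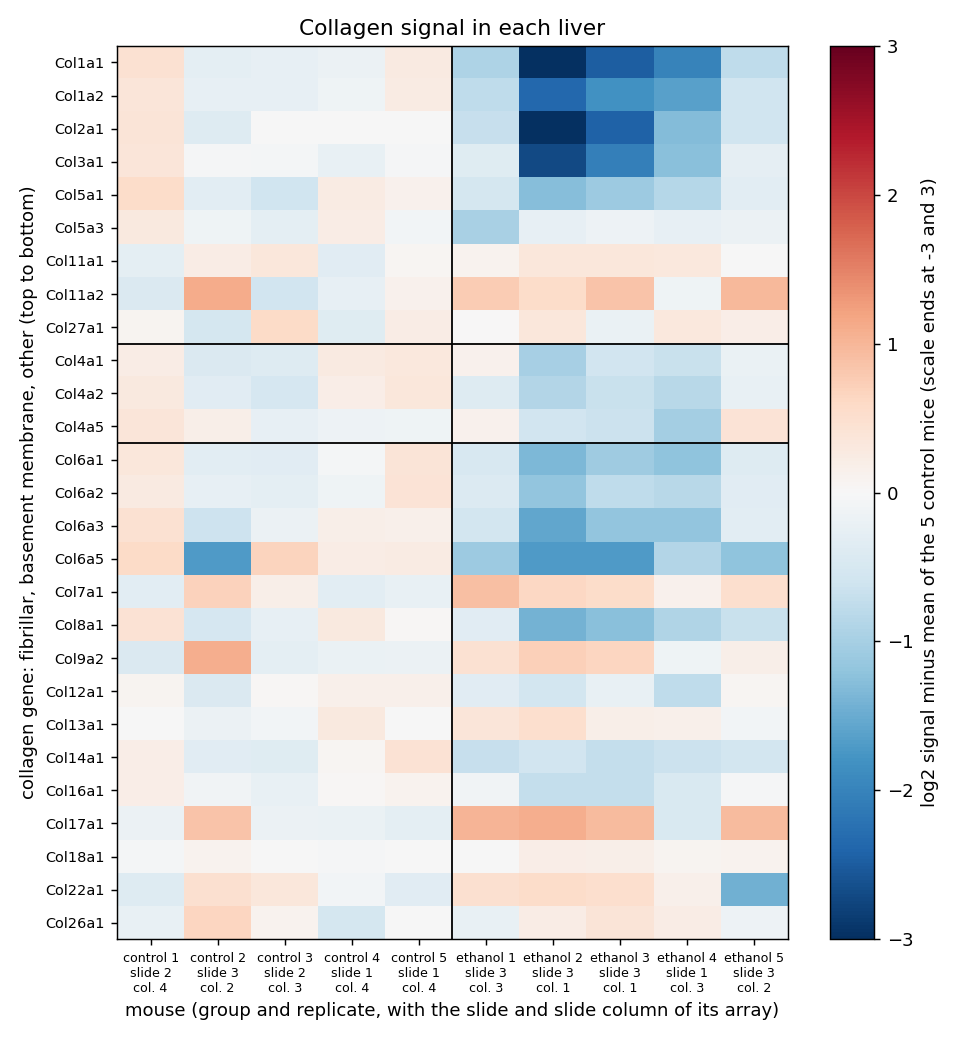
Log2 signal of each of the 27 kept collagen genes (rows) in each of the 10 mice (columns), minus the mean of the 5 control mice, with blue for lower and red for higher. Types I, II and III are darkest in ethanol mice 2, 3 and 4, and palest among ethanol mice in 1 and 5.

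Type I collagen is a trimer of 2 Col1a1 chains and 1 Col1a2 chain. Col1a1 stood at 2.48, 1.73, 1.77, 1.85 and 2.29 in control mice 1 to 5 and at 1.11, -1.30, -0.45, 0.01 and 1.25 in ethanol mice 1 to 5. Its groups did not overlap, and the ethanol mice were spread over 2.55 units where the control mice spanned 0.75. The log2 fold change was -1.90 ± 0.44 (SE), or 3.73-fold lower, with an adjusted p of 0.239 in limma. Another probe of Col1a1 gave -1.91 ± 0.46 (SE), with its groups also apart.

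Col1a2 had 3.86, 3.25, 3.27, 3.38 and 3.76 in control mice 1 to 5 and 2.75, 1.16, 1.68, 1.87 and 2.90 in ethanol mice 1 to 5. The order of the ethanol mice was that of Col1a1, with mouse 2 lowest and mouse 5 highest. Its log2 fold change was -1.43 ± 0.32 (SE), 2.69-fold lower.

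Type III collagen is a homotrimer of Col3a1 that forms thin fibrils with type I. Col3a1 was 3.52, 3.11, 3.09, 2.92 and 3.11 in control mice 1 to 5 and 2.79, 0.45, 1.11, 1.89 and 2.87 in ethanol mice 1 to 5. Ethanol mice 1 and 5 came within 0.13 and 0.05 of the lowest control mouse, while mice 2 and 3 were the lowest of the 10. The log2 fold change was -1.33 ± 0.43 (SE), 2.51-fold lower, with an adjusted p of 0.307 in limma.

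Col2a1, the chain of cartilage collagen, was measured on every array. It had 0.33, -0.45, -0.08, -0.08 and -0.08 in control mice 1 to 5 and -0.76, -3.08, -2.50, -1.37 and -0.66 in ethanol mice 1 to 5, with the groups apart. Its log2 fold change of -1.60 ± 0.44 (SE) lay between those of Col1a1 and Col1a2.

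Type V collagen sits in the core of type I fibrils and sets their diameter. Col5a1 was 1.02, 0.14, -0.12, 0.70 and 0.59 in control mice 1 to 5 and -0.06, -0.81, -0.62, -0.39 and 0.16 in ethanol mice 1 to 5. Control mice 2 and 3 lay among the ethanol mice, and the log2 fold change was -0.81 ± 0.24 (SE). Col5a3 was 2.29, 1.87, 1.72, 2.21 and 1.92 in control mice 1 to 5 and 1.04, 1.75, 1.84, 1.76 and 1.82 in ethanol mice 1 to 5, a log2 fold change of -0.36 ± 0.17 (SE). Here ethanol mouse 1 was by itself and the other 4 ethanol mice lay within 0.09 of each other. Col5a2 was not kept, with 3 control arrays and 1 ethanol array well above background.

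The remaining fibrillar chains did not share this pattern. Col11a1 and Col11a2, chains of type XI that nucleate cartilage fibrils, had log2 fold changes of 0.21 ± 0.15 (SE) and 0.60 ± 0.32 (SE). Col11a2 stood clear of background on 2 arrays of control and 5 of ethanol mice, so it was kept through the group in which it was brighter. Col27a1, a short fibrillar chain, had 0.13 ± 0.20 (SE) and ran from -2.35 to -1.26 in control and from -2.03 to -1.50 in ethanol mice. Col24a1 was not well above background on any array.

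**Figure D2:**
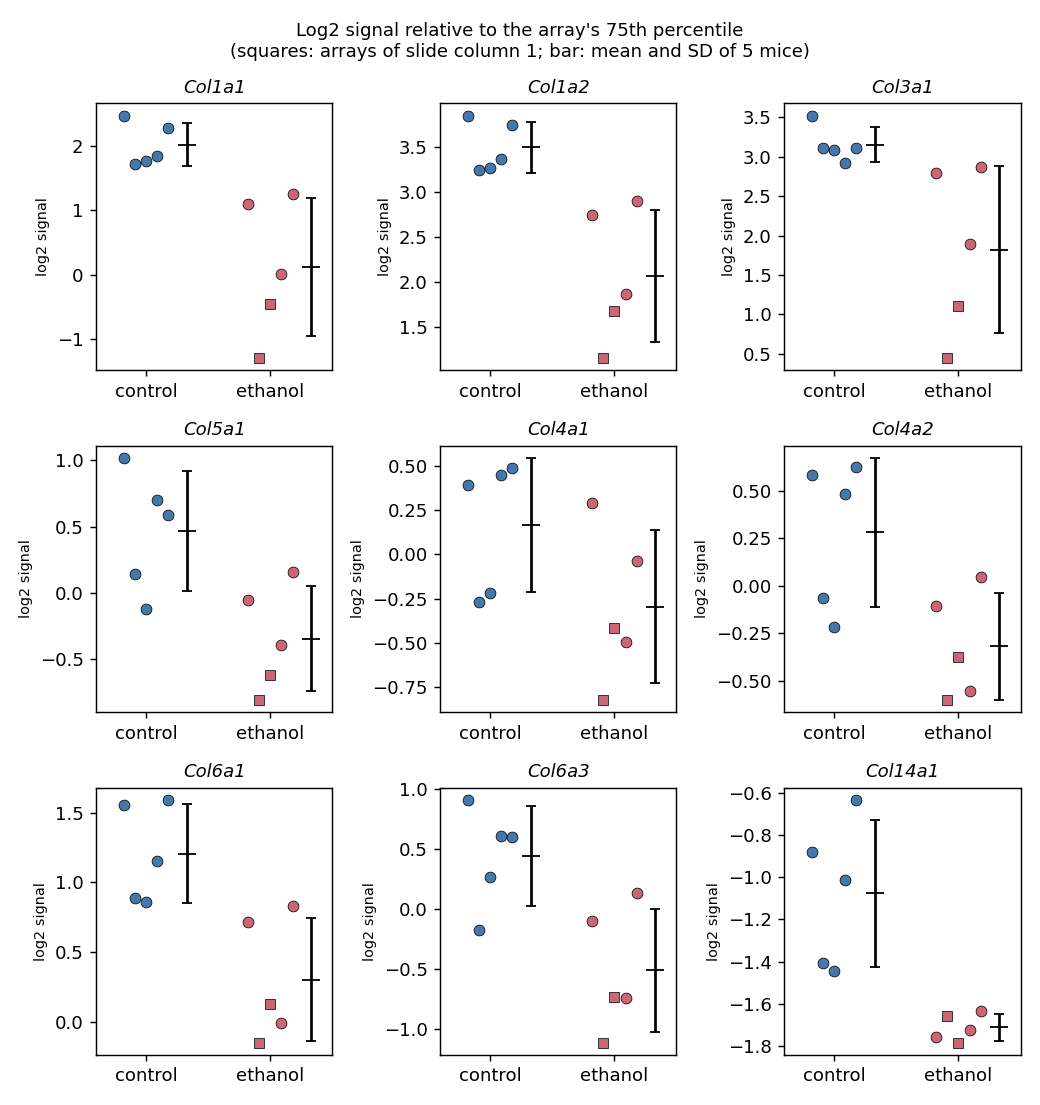
Log2 signal of 9 collagen genes in each mouse, by group, on a scale of its own for each gene; squares are arrays of slide column 1 and the bar beside each group is its mean and SD (n = 5). For Col1a1, Col1a2, Col3a1, Col6a1 and Col14a1 the groups do not overlap, and for Col5a1, Col4a1, Col4a2 and Col6a3 they do.

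Type IV collagen, the sheet-forming chain of basement membranes, is most widely made as a trimer of Col4a1 and Col4a2. Col4a1 had 0.39, -0.27, -0.22, 0.45 and 0.48 in control mice 1 to 5 and 0.29, -0.82, -0.41, -0.49 and -0.04 in ethanol mice 1 to 5. Col4a2 had 0.58, -0.07, -0.22, 0.48 and 0.62 in control mice 1 to 5 and -0.11, -0.60, -0.38, -0.56 and 0.05 in ethanol mice 1 to 5. In both genes control mice 2 and 3 were lowest of their group and the groups overlapped. The log2 fold changes were -0.46 ± 0.23 (SE) and -0.60 ± 0.20 (SE), and that of Col4a2 had an unadjusted p under 0.05. Col4a5, a chain of specialised basement membranes, had -0.34 ± 0.26 (SE), and ran from -3.36 to -2.76 in control and from -4.15 to -2.71 in ethanol mice. Col4a3, Col4a4 and Col4a6 were not well above background on any array.

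Col4a1 and Col4a2 are transcribed in opposite directions from starts so close that the annotated first bases overlap, and the 22 shared bases are shown here because both genes gave a value in every mouse. RefSeq (GRCm38.p6) places them at chr8:11312805-11312826, given on the plus strand and in capitals throughout, with the start of Col4a2 at its left end and that of Col4a1 at its right end.
Col4a1 and Col4a2, shared start: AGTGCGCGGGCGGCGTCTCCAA

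Type VI collagen forms beaded filaments next to cells, from Col6a1, Col6a2 and 1 further chain. Col6a1 was 1.55, 0.89, 0.86, 1.15 and 1.59 in control mice 1 to 5 and 0.72, -0.15, 0.13, -0.01 and 0.83 in ethanol mice 1 to 5. Its groups were apart by 0.03, between ethanol mouse 5 and control mouse 3. Col6a2 was -1.94, -2.44, -2.50, -2.32 and -1.80 in control mice 1 to 5 and -2.61, -3.39, -2.96, -3.04 and -2.53 in ethanol mice 1 to 5, again with ethanol mouse 5 just under control mouse 3.

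Col6a3 was 0.91, -0.18, 0.26, 0.61 and 0.60 in control mice 1 to 5 and -0.10, -1.11, -0.73, -0.75 and 0.13 in ethanol mice 1 to 5, and control mouse 2 lay under ethanol mice 1 and 5. The log2 fold changes were -0.90 ± 0.23 (SE) for Col6a1, -0.71 ± 0.19 (SE) for Col6a2 and -0.96 ± 0.27 (SE) for Col6a3. A dimmer probe of Col6a3 gave -1.09 ± 0.27 (SE), with its groups apart. Col6a5, an alternative to Col6a3 in the trimer, was above background on 4 control arrays but no ethanol array, so it was kept through the control group. It had -4.11, -6.37, -3.99, -4.45 and -4.44 in control mice 1 to 5 and -5.77, -6.37, -6.37, -5.55 and -5.89 in ethanol mice 1 to 5, where -6.37 is the floor set on dim signals. No ethanol value of Col6a5 was well above background, so the size of its difference is uncertain. The adjusted p of 0.296 in limma came from the values above, floor included. Col6a4 and Col6a6 were not well above background on any array.

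Among chains that coat fibrils, Col14a1 had the most even ethanol group. It was -0.88, -1.41, -1.44, -1.01 and -0.63 in control mice 1 to 5 and -1.76, -1.66, -1.78, -1.72 and -1.63 in ethanol mice 1 to 5. The ethanol SD was 0.06 and the control SD 0.35, unlike types I to III, whose spread was larger with ethanol. Its log2 fold change was -0.64 ± 0.15 (SE), 1.55-fold lower, with an adjusted p of 0.239 in limma.

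Col16a1, also fibril-associated, was 0.69, 0.39, 0.27, 0.53 and 0.60 in control mice 1 to 5 and 0.40, -0.21, -0.21, 0.04 and 0.45 in ethanol mice 1 to 5, with overlap and a log2 fold change of -0.40 ± 0.15 (SE). Col12a1 had -0.36 ± 0.17 (SE), running from -3.32 to -2.72 in control and from -3.64 to -2.83 in ethanol mice. Col9a2 and Col22a1, which belong to the same family, had 0.37 ± 0.28 (SE) and 0.05 ± 0.37 (SE). Col22a1 stood clear of background on 2 arrays of control and 4 of ethanol mice, so it too was kept through the ethanol group. Of the family, Col9a1 was above background on 1 array per group and Col20a1 on 1 control and 2 ethanol arrays, while Col9a3 and Col19a1 were on none, and these 4 were not kept.

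Col8a1, a short chain that builds lattices beneath vessel endothelium, was -0.23, -1.16, -0.91, -0.37 and -0.62 in control mice 1 to 5 and -1.01, -2.08, -1.92, -1.57 and -1.32 in ethanol mice 1 to 5. Only ethanol mouse 1 reached the control values, and the log2 fold change was -0.92 ± 0.23 (SE). The other short chains, Col8a2 and Col10a1, were not well above background on any array.

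Col7a1, the anchoring fibril that fixes epithelium to the tissue beneath, was the collagen with the higher mean under ethanol at an unadjusted p under 0.05. It was -1.98, -0.98, -1.49, -1.98 and -1.89 in control mice 1 to 5 and -0.77, -1.05, -1.12, -1.53 and -1.16 in ethanol mice 1 to 5, a log2 fold change of 0.54 ± 0.21 (SE). Control mouse 2 lay among the ethanol mice and ethanol mouse 4 among the control mice. Col17a1, a membrane-spanning chain of epithelial anchoring junctions, had 0.71 ± 0.32 (SE). Col13a1, another membrane-spanning chain, had 0.22 ± 0.13 (SE). Col23a1 (1 control and 2 ethanol arrays above background) and Col25a1 (none) were not kept.

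Col18a1 had the smallest standard error of the 27 genes. It was 6.77, 6.93, 6.82, 6.80 and 6.82 in control mice 1 to 5 and 6.80, 7.02, 7.00, 6.91 and 6.93 in ethanol mice 1 to 5. The groups overlapped, and the log2 fold change was 0.11 ± 0.07 (SE). Its relative Col15a1 was not kept: its brighter probe was above background on 2 arrays of each group, with -4.72, -4.00, -4.81, -4.40 and -5.21 in control mice 1 to 5 and -4.11, -4.86, -4.73, -5.08 and -4.38 in ethanol mice 1 to 5, which overlapped. Col26a1 had 0.09 ± 0.21 (SE), and Col28a1 was not well above background on any array. In all, 12 of the 17 genes that were not kept were well above background on no array.

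Some mice were at the ends of the range in many genes. Ethanol mouse 2 was the lowest of the 10 in 11 of the 27 genes and control mouse 1 the highest in 9. Ethanol mouse 5 was the highest of its group in 14 genes. The median fibrillar gene, relative to the control mean, was at -0.52, -1.28, -1.09, -0.86 and -0.28 in ethanol mice 1 to 5 and at 0.35, -0.25, -0.23, -0.18 and 0.12 in control mice 1 to 5. Ethanol mouse 5 thus lay 0.03 under control mouse 2.

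Slide column moved with these values. Ethanol mice 2 and 3, the lowest for Col1a1, Col1a2, Col2a1 and Col3a1, held column 1. Control mice 1, 4 and 5, which were the 3 highest of the 10 for Col5a1, Col4a1, Col4a2, Col6a1, Col6a2 and Col14a1, held column 4. With the column number as a covariate the median log2 fold change was -0.41 for fibrillar, -0.29 for basement membrane and -0.29 for other genes. The number of genes lower at an unadjusted p under 0.05 was then 4, against 2.1% of all probes, and 0 were higher, against 3.4%. Those 4 were Col1a1 at -1.18, Col1a2 at -0.94, Col14a1 at -0.44 and Col8a1 at -0.40. Col4a1 came to -0.02 with the covariate.

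With the column as 4 separate levels, which leaves columns 2 and 3 to compare the groups, 0 genes were lower (3.7% of all probes) and 0 higher (5.66%), with medians of -0.20, -0.01 and -0.23. Without the 2 arrays of column 1, 9 genes were lower (3.29% of all probes) and 0 higher (5.83%). Col1a1 was then at -1.23, Col1a2 at -0.99 and Col3a1 at -0.63. Within column 3, with 1 control and 2 ethanol mice, 2 genes were lower (1.21% of all probes) and 0 higher (2.44%). They were Col2a1 and Col6a5, and for Col6a5 the ethanol values are bounds only. There Col1a1 was at -1.22 and Col1a2 at -0.96. Within column 2, with 1 mouse of each group and so no test, Col1a1 was at -0.48, Col1a2 at -0.35 and Col3a1 at -0.24. How much of the collagen difference goes with column and how much with ethanol cannot be told apart beyond these values.

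**Figure D3:**
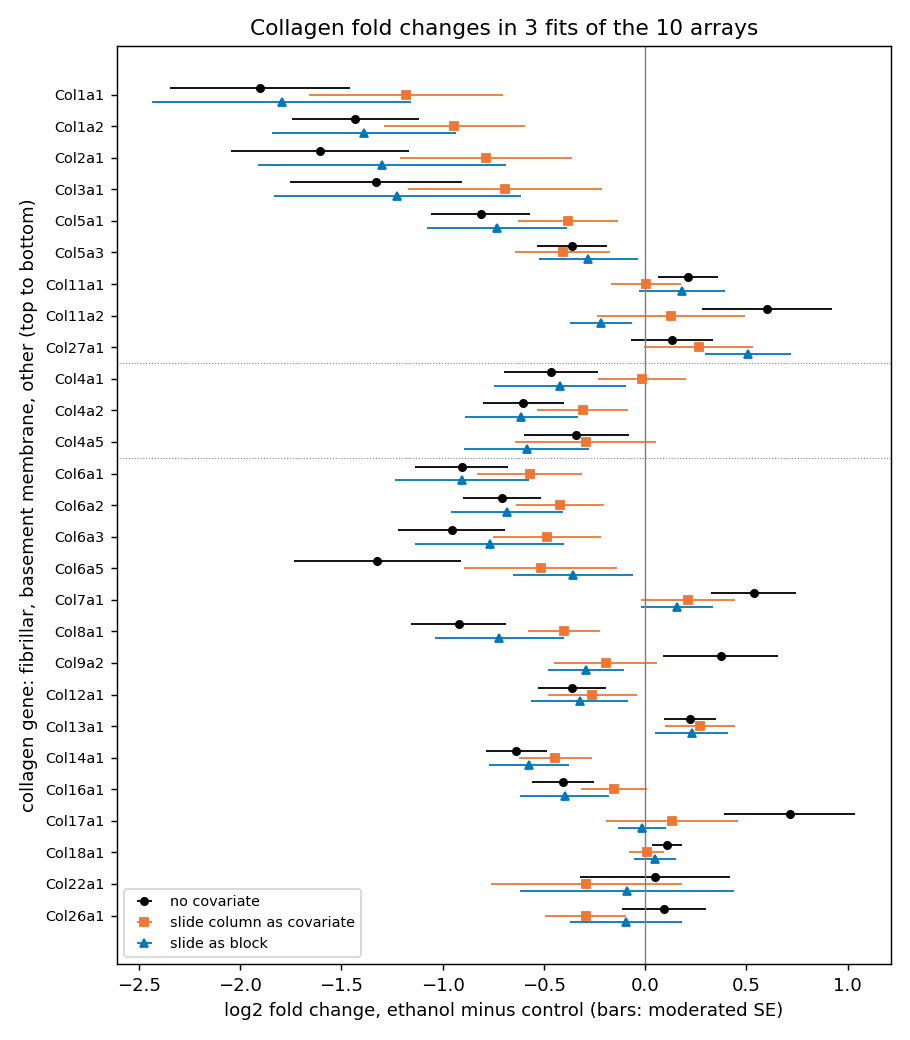
Log2 fold change (ethanol minus control, with its moderated SE) of the 27 kept collagen genes in 3 fits of the same 10 arrays: without a covariate, with the slide column as a numeric covariate, and with the slide as a block. Col1a1, Col1a2, Col2a1 and Col3a1 stay below 0 in all 3 fits, and Col9a2 lies above 0 only without a covariate. The values of Col6a5 rest on ethanol signals not well above background.

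Slide made a smaller difference to the fibrillar genes. With slide as a block their median was -0.73, and that of the basement membrane and other genes -0.59 and -0.32. Then 5 genes were lower (2.3% of all probes), Col1a1 at -1.79, Col1a2 at -1.39, Col6a1 at -0.90, Col6a2 at -0.68 and Col14a1 at -0.57. The 1 gene then higher (4.2% of all probes) was Col27a1 at 0.51. Within slide 1, where ethanol mouse 4 met control mice 4 and 5, 16 genes were lower (5.81% of all probes) and 0 higher (5.09%), with Col1a1 at -2.05 and Col3a1 at -1.13. Within slide 3, where 4 ethanol mice met control mouse 2, 0 genes were lower (2.55%) and 0 higher (5.16%), with Col1a1 at -1.58 and Col3a1 at -1.30. In these and the column 3 fit 1 group had a lone mouse, assumed to vary like the others. On slide 1 both control mice held column 4 and the ethanol mouse column 3. The slide 1 fit therefore cannot separate ethanol from column, and its count of lower genes is not free of column.

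Of the 27 kept genes, 4 (14.8%) were higher on slide 3 without overlap, which held for 5.88% of all probes. In Col7a1, Col9a2, Col11a2 and Col17a1 every mouse of slide 3 lay above every mouse of slides 1 and 2. These 4 also had a higher mean under ethanol, and slide 3 held 4 ethanol mice but 1 control mouse, so the 2 patterns are not independent. Col17a1 was at -2.16 in control mouse 2 and between -2.06 and -1.92 in the 4 ethanol mice of slide 3, against -3.47 in ethanol mouse 4 and between -3.29 and -3.19 in the other 4 control mice. With slide as a block its log2 fold change was -0.02, and those of Col7a1, Col9a2 and Col11a2 were 0.16, -0.29 and -0.22. Of the 27 genes 1 (3.7%), Col6a5, separated the other way, with every mouse of slide 3 under every mouse of slides 1 and 2 (0.421% of all probes). It was not well above background on any array of slide 3, and with slide as a block it was at -0.36. Each slide had its own scan, so slide and scan cannot be told apart.

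**Figure D4:**
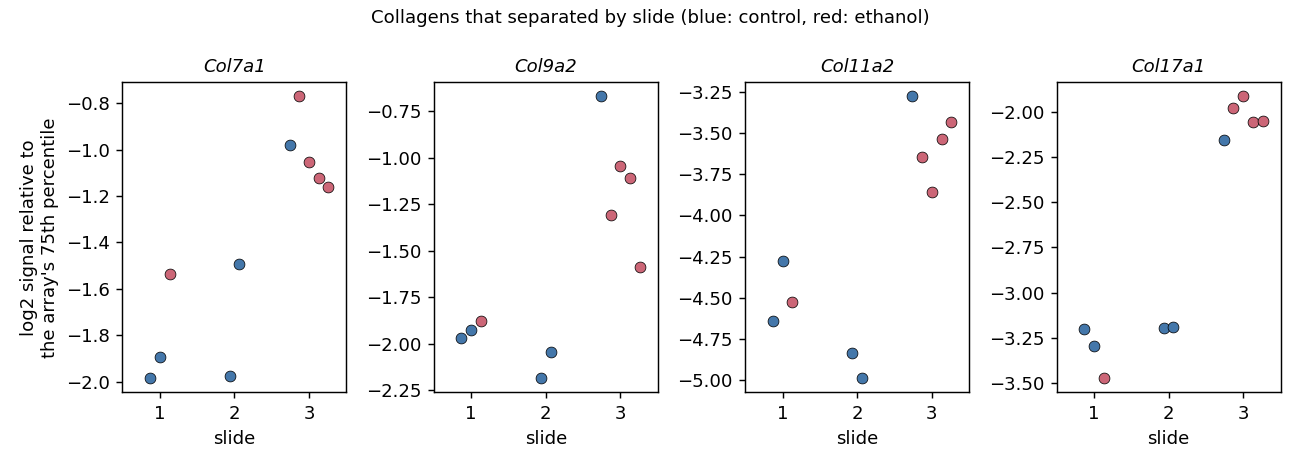
Log2 signal of 4 collagen genes in each mouse by the slide of its array, with control mice in blue and ethanol mice in red. The 5 mice of slide 3, control mouse 2 among them, lie above the 5 mice of slides 1 and 2 in each gene.

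Collagen chains are hydroxylated, folded and escorted in the endoplasmic reticulum before secretion. Of 16 kept genes for modification and folding, 5 were lower and 0 higher at an unadjusted p under 0.05, beside the 4.28% and 8.56% of all probes given above, and the median log2 fold change was -0.03. Serpinh1 (the collagen chaperone HSP47) had -0.71 ± 0.17 (SE) with its groups apart, Fkbp10 (a prolyl isomerase of procollagen) -0.70 ± 0.20 (SE), and P3h3, of the prolyl 3-hydroxylase family, -0.53 ± 0.16 (SE). Plod2, also among the 5, was well above background on 5 control arrays but only 1 ethanol array. It was kept through the control group, so the size of its difference is uncertain. P4hb, the disulfide isomerase subunit of prolyl 4-hydroxylase, had 0.08 ± 0.11 (SE). Of the 16, 1 was lower with the column covariate (Serpinh1, at -0.47) and 0 higher at an unadjusted p under 0.05, beside 2.1% and 3.4% of all probes.

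Of 9 kept genes for propeptide cleavage and crosslinking, 5 were lower and 0 higher at that threshold, with a median of -0.50. Adamts2, which removes the amino propeptide of types I to III, had -0.84 ± 0.16 (SE). Lox and Loxl1, which crosslink the fibrils, had -1.54 ± 0.30 (SE) and -1.06 ± 0.25 (SE). Lox was well above background on 5 control but only 2 ethanol arrays, so it was kept through the control group and the size of its difference is uncertain. With the column covariate these 3 were at -0.59, -1.15 and -0.88, each lower at an unadjusted p under 0.05, and Pcolce2, an enhancer of propeptide cleavage, was higher at 0.47. Of 9 kept fibril-binding proteins, 6 were lower and 0 higher, with a median of -0.56; Postn had -0.87 ± 0.24 (SE), Tnxb -0.56 ± 0.16 (SE) and Dcn, the fibril-coating proteoglycan decorin, -0.37 ± 0.11 (SE). None of these 6 was lower at that threshold with the column covariate, and Fmod, which binds fibrils too, was the 1 that was, at -0.66.

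Of 9 kept collagen receptors, 5 were lower and 0 higher, with a median of -0.31. The fibrillar collagen integrin chain Itga11 had -0.73 ± 0.22 (SE), the endocytic collagen receptor Mrc2 -1.01 ± 0.33 (SE), and Itga1 -0.25 ± 0.09 (SE). Mrc2 was well above background on 4 control arrays and 1 ethanol array, so it too was kept through the control group. No receptor was lower at that threshold with the column covariate. Of 8 kept genes of collagen breakdown and its inhibitors, 4 were lower and 0 higher, with a median of -0.43, and both sides were among them. The inhibitors Timp2 and Timp1 had -0.63 ± 0.15 (SE) and -0.30 ± 0.08 (SE), and the collagen-cleaving protease Ctsk had -1.13 ± 0.30 (SE). Of the 4, 2 were lower with the column covariate, Timp2 at -0.43 and Timp1 at -0.30. Of 15 kept genes of the signals that induce collagen transcription, 4 were lower and 0 higher, with a median of -0.21. The inhibitory Smad7 was counted among them, at -0.12 ± 0.18 (SE). Tgfb2, a transforming growth factor, had -0.89 ± 0.32 (SE), and the receptors Pdgfrb and Pdgfra had -0.59 ± 0.24 (SE) and -0.48 ± 0.20 (SE). Tgfb1, the best known inducer, had -0.21 ± 0.16 (SE). Under the column covariate 0 of these 15 genes were lower and 1, the receptor Tgfbr2, was higher at 0.46. No gene of these 6 lists passed the adjusted threshold. With the column covariate their medians were -0.01, -0.18, -0.27, -0.15, -0.15 and -0.08 in the order given.

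**Figure D5:**
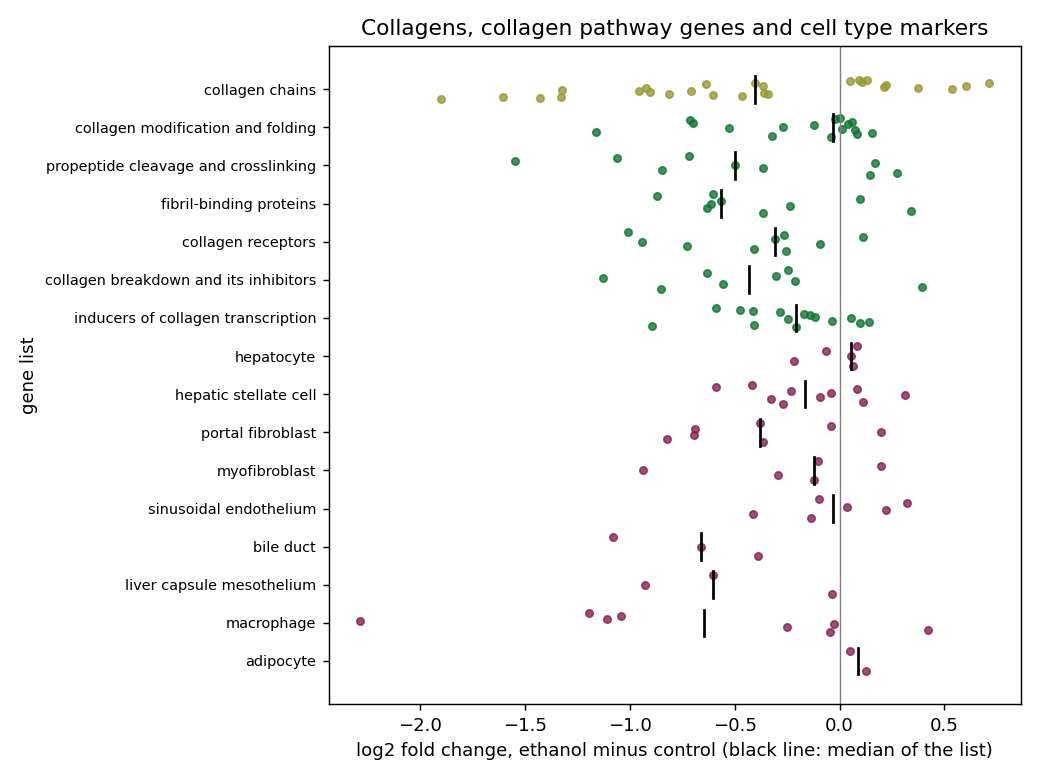
Log2 fold change (ethanol minus control) of each kept gene, for the collagen chains, 6 lists of collagen pathway genes and 9 lists of cell type markers, with the median of each list as a black line. The collagen chains span -1.90 to 0.71, and the hepatocyte markers lie near 0.

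Markers of the cells that make collagen, and of other cells, were read beside these values. Of 10 stellate cell markers, all kept, 7 had a mean below control (38.8% of all probes). Of these 7, 3 were lower at an unadjusted p under 0.05 (4.28% of all probes), and the median of the 10 was -0.16. With the column covariate 0 were lower at that threshold and the median was 0.02. Their summed linear signal, in units of the array's 75th percentile, ran from 49.8 to 65.1 in control and from 55.8 to 58.1 in ethanol mice. Such sums weigh the brightest gene most. That was Ecm1 here, with a control mean of 5.19. It was Gas6 (4.48) among portal fibroblast markers, Spp1 (3.71) among bile duct markers and Cidec (6.15) among adipocyte markers. Reln had -0.33 ± 0.09 (SE) and Hand2 -0.42 ± 0.18 (SE), with Pdgfrb as above, while Lrat and Des, classical markers of stellate cells, had -0.27 ± 0.17 (SE) and 0.11 ± 0.16 (SE).

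Of 7 portal fibroblast markers 6 were below control (38.8% of all probes), 3 of them at an unadjusted p under 0.05 (4.28% of all probes). Those 3 were Thy1 at -0.37, Fbln2 at -0.69 and Cd34 at -0.69. The sum of the 7 ran from 21.7 to 32.6 in control and from 11.1 to 39.0 in ethanol mice. With the column covariate 0 were lower at that threshold (2.1% of all probes), and their median went from -0.38 to -0.12. The 5 myofibroblast markers had a median of -0.12 (Acta2 -0.12, Actg2 -0.10, Cnn1 -0.93, Myh11 0.20 and Tagln -0.29) and sums of 11.3 to 14.7 and 10.1 to 13.1. Cnn1 was well above background on 4 control arrays and 1 ethanol array. Of 8 macrophage markers 7 were below control (38.8% of all probes). At an unadjusted p under 0.05, 2 were lower (4.28% of all probes) and 1 higher (8.56%). Their median was -0.65, which was -0.0096 with the column covariate, and sums were 35.7 to 50.8 and 30.4 to 55.3. The 2 lower were Cx3cr1 at -1.19 and Gpnmb (well above background on 3 ethanol arrays) at -2.28. The higher one was Clec4f, a marker of resident Kupffer cells, at 0.42. With the covariate Clec4f was at 0.66, the 1 macrophage marker then at an unadjusted p under 0.05. The medians of the other marker lists with the covariate were -0.06 for hepatocytes, -0.11 for myofibroblasts, 0.07 for sinusoidal endothelium, -0.38 for bile duct, -1.10 for mesothelium and 0.23 for adipocytes.

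The 6 sinusoidal endothelial markers were split evenly in sign, with Pecam1 at 0.32, Lyve1 at -0.41 and Clec4g at 0.22, and sums of 24.6 to 32.1 and 25.7 to 31.2. The 3 kept bile duct markers were all below control (38.8% of all probes), Sox9 at -0.66, Spp1 at -1.08 and Krt19 at -0.39. Of these 1, Sox9, was lower at an unadjusted p under 0.05 (4.28% of all probes). Their sums were 8.95 to 27.6 and 3.25 to 16.3, while Krt7 and Epcam were not kept. The 3 kept capsule mesothelium markers were below control too, Gpm6a at -0.61, Wt1 at -0.92 and Msln at -0.03. Of these 2, Gpm6a and Wt1, were lower at that threshold. Gpm6a was well above background on 4 control arrays and 1 ethanol array. The mesothelium sums were 0.33 to 1.36 and 0.23 to 0.72, while Upk3b and Lrrn4 were not kept. Of the adipocyte markers Lep had 0.13 and Cidec 0.05, with sums of 59.3 to 88.4 and 38.1 to 124.2, and Adipoq, Plin1 and Retn were not kept. The hepatocyte markers had Apoa1 at -0.22, Serpina1a at 0.08, Alb at 0.06, Ttr at 0.05 and Cps1 at -0.07, with sums of 2797 to 3817 and 3085 to 3451. The part of these cell markers in the collagen values was not tested.

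Promoters are shown for 3 collagens whose groups did not overlap, chosen after their values were seen, so that the letters before their starts can be compared. RefSeq promoters (GRCm38.p6) matched 35 of the 44 collagen genes and 21 of the 27 kept ones. Each stretch is the 250 bases before the annotated start, read in the direction of transcription, and capitals mark matches to 3 motifs, searched on both strands. The box bound by NF-Y reads CCAAT. The sequence GGGCGG is a classical GC box, to which Sp1 binds. A TATA box was searched for as TATAAA. Col1a2 lies at chr6:4505368-4505617 (plus strand), Col3a1 at chr1:45311288-45311537 (plus strand) and Col6a1 at chr10:76726045-76726294 (minus strand).
Col1a2: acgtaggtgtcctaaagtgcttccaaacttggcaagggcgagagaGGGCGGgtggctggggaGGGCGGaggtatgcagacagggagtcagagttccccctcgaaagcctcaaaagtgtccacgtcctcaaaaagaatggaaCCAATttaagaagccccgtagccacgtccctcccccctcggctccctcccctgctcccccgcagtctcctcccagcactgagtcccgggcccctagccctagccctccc
Col3a1: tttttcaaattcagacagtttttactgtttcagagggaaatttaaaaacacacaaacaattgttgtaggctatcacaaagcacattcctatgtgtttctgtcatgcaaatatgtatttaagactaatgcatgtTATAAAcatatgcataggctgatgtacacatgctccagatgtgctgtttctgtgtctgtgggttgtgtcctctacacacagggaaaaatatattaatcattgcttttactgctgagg
Col6a1: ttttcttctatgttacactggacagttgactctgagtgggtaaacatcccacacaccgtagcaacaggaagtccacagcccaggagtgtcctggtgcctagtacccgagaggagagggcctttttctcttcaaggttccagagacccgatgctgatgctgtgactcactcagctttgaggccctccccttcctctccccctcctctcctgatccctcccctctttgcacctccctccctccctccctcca

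Col1a2 held 1 CCAAT, with its first base 109 bases before the start, and GGGCGG at 205 and 188 bases. Col3a1 held TATAAA at 117 bases, and Col6a1 held none of the 3 motifs. No match overlapped one of another motif in these stretches. CCAAT was found before 10 of the 21 matched kept collagens and 33.8% of all 32851 promoters. GGGCGG was found before 15 of 21 and 32.7%, and TATAAA before 4 of 21 and 12.4%. A collagen gene counted if any of its promoters matched, while the percentages are over single promoters, so these are unlike measures. Among the 10 matched genes that were lower at an unadjusted p under 0.05, the counts were 3, 7 and 1. A match describes letters and is not a measured site.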

How the data were processed

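Liver RNA of 10 mice was measured on 10 Cy3 arrays. The labelling started from 150 ng of RNA with spike-ins, per the labels. The authors deposited 1 scanner table per array, holding spot intensity and flags such as well above background. Per the file headers these came from Agilent Feature Extraction 10.7.3.1 and an array built on mm9. The authors also deposited a log2 table, whose differences between arrays match those of the scaled scanner values (r = 1 over 16595 bright probes). How it was centred is not given here. It served as an alternative.

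Controls and spots with an outlier flag were dropped, and spots of a probe averaged. Processed intensity was divided by the array's 75th percentile (277 to 383.3 units), floored at 4 units and put on the log2 scale. Since the scanner tables used here held no gene names, symbols came through accessions from RefSeq genes (GRCm38.p6): 32989 probes had 1 symbol and 23616 none. Groups were compared with limma 3.58.1 (R 4.3.3, lmFit and eBayes) over all 31110 kept probes, with Benjamini-Hochberg adjustment. SE is the moderated standard error. A gene with several kept probes counts by its brightest. The fit was tested on simulated data. The closest pair of arrays differed by 0.233 (root mean square, log2), so no array's values were a copy of another's.

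Members, classes, lists and tests were chosen with earlier results of these data known. Values in every mouse are given for types I, III, IV (Col4a1 and Col4a2), V and VI, Col14a1, Col15a1, Col18a1 and other kept collagens at an unadjusted p under 0.05. Lists are named by their 3 smallest p, or all kept members of lists of 5 or fewer. Lrat, Des, P4hb, Tgfb1, Smad7, Plod2, Ecm1 and Gas6 were added after their values were seen. Normexp was run with an offset of 50 on median signals, in place of the mean signals. The 32 alternatives covered covariates, subsets of arrays, normalization, background, floor, filter, probes and variance.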

Additional observations from a re-analysis of the deposited data

Results flagged for a closer look

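Of 54 sets of 5 mice (27 genes in 2 groups), 7 held a mouse far from the other 4, by a gap over the whole range above the Dixon limit of 0.71. Chance gives about 1 in 20 such sets, and no explanation was tested. Control mouse 2, the only control mouse on slide 3, accounts for 4 of them. It was the highest control mouse in Col17a1 (-2.16 against -3.29 to -3.19, ratio 0.91) and in Col9a2 (-0.67 against -2.19 to -1.93, ratio 0.828), and the lowest in Col6a5 (at the floor, -6.37 against -4.45 to -3.99, ratio 0.8075) and Col12a1 (-3.32 against -2.85 to -2.72, ratio 0.7813). Ethanol mouse 4, the only ethanol mouse off slide 3, was the lowest of its group in Col17a1 (-3.47 against -2.06 to -1.92, ratio 0.9092). Ethanol mouse 1 was lowest in Col5a3 (1.04 against 1.75 to 1.84, ratio 0.8831), and ethanol mouse 5 in Col22a1 (-6.24 against -4.65 to -4.25, ratio 0.7957).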

How the results depend on the processing

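Under 31 tested alternatives no collagen passed the adjusted threshold; the fibrillar median shifted most with slide column. Below 0 in all 32 alternatives were Col1a1, Col1a2, Col2a1, Col3a1, Col5a3, Col6a1, Col6a2, Col8a1 and Col14a1. The 13 genes lower at an unadjusted p under 0.05 (4.28% of all probes) became 4 with the column as a numeric covariate (2.1%). The count was 0 with the column as a factor (3.7%) and 5 with slide as a block (2.3%). It was 5 with both slide and column (2.54%), a fit chosen after seeing the data. The cause was not tested. Leaving out 1 mouse gave 12 to 15 lower genes, where 3.08% to 5.17% of all probes were lower, and 0 to 4 higher genes, where 5.4% to 12.7% were, with 0 higher without control mouse 1 or 5 or ethanol mouse 1 or 2, 4 without control mouse 2 (12.7% of all probes), 3 without ethanol mouse 4 and 2 without ethanol mouse 5. Against 1 higher gene (8.56% of all probes) there were 0 with the column as covariate (3.4%) or factor (5.66%). None was higher without column 1 (5.83%) or with slide and column together (4.28%). There were 2 with the replicate block (8.94% of all probes), normexp (7.4%) or no filter (6.34%). A filter on all 10 arrays (8.22%) and a trended variance (9.04%) also gave 2. Array weights (13.4%) and slide as a random block (11.2%, correlation -0.07) gave 3. The median over fibrillar genes became -0.41 with the column covariate, -0.48 within slide 3, -0.20 as a factor, -0.22 within column 2, -0.40 within column 3 and -0.43 with slide and column. That over basement membrane genes became -0.29 with the column covariate, -0.013 as a factor, -0.31 with slide and column, -0.25 without column 1, -0.96 within slide 1, -0.19 within slide 3, 0.23 within column 2, -0.11 within column 3 and -0.22 with no filter. That over other genes became -0.53 within slide 1, -0.057 within column 2, -0.11 within column 3, -0.11 with normexp, -0.13 with a floor of 16 units and 0 with no filter on dim probes, where all 44 genes entered.

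Signs turned in 12 genes in fits with a test. Within column 2, with 1 mouse a group and no test, Col4a2 at 0.11, Col4a5 at 0.24, Col5a1 at 0.013, Col6a3 at 0.30 and Col16a1 at 0.057 were above 0 as well. With the column covariate Col9a2 was at -0.19, Col22a1 at -0.29 and Col26a1 at -0.29. As a factor Col4a1 was at 0.17, Col9a2 at -0.13, Col11a1 at -0.18, Col22a1 at -0.84 and Col26a1 at -0.40. With slide as a block Col9a2 was at -0.29, Col11a2 at -0.22, Col17a1 at -0.016, Col22a1 at -0.088 and Col26a1 at -0.094. With slide and column Col9a2 was at -0.41, Col11a2 at -0.19, Col18a1 at -0.0058, Col22a1 at -0.29 and Col26a1 at -0.31. Without column 1 Col22a1 was at -0.27 and Col26a1 at -0.049. Within slide 1 Col11a2 was at -0.070 and Col17a1 at -0.22. Within slide 3 Col4a1 was at 0.024, Col6a5 at 0.27 (not well above background on any of those arrays), Col7a1 at -0.048, Col9a2 at -0.59, Col11a1 at -0.037, Col11a2 at -0.34, Col12a1 at 0.17, Col22a1 at -0.46 and Col26a1 at -0.58. Within column 3 Col4a1 was at 0.12, Col11a1 at -0.14, Col22a1 at -0.020, Col26a1 at -0.11 and Col27a1 at -0.40. With quantile normalization Col18a1 was at -0.0025, Col22a1 at -0.082 and Col26a1 at -0.025. With 1 mouse left out Col22a1 ran from -0.077 to 0.42 and Col26a1 from -0.036 to 0.25.

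With the replicate number as a block 15 collagens were lower (5.55% of all probes) and 2 higher (8.94%), with the medians as in the fit without pairing. The numbers were not treated as pairs, as same-numbered mice correlated in their deviations from the group means at -0.17 to 0.26 over 5 pairs and 2 arrays correlated best with their own number. Brightness limits the 5 genes above background on some arrays only, and Col6a5, Col11a2 and Col22a1, which were near background in 1 group.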
